A study of Mus musculus with 12 samples.

Results

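The zinc finger genes described here are those whose symbols begin with Zfp, Zkscan or Zscan followed by a digit and whose mean TPM (relative transcript abundance corrected for length and depth) over all 12 libraries was at least 5. Of the 20614 genes in the table, 428 carried such a symbol and 286 passed the threshold, of which 271 were named Zfp, 9 Zkscan and 6 Zscan. The members were thus chosen by their measured TPM. Of the 12 libraries 9 came from mutant mice, so the mean was weighted towards levels in mutants: 29 members had a Cd38+/+ mean below 5, against 2 with a Cd38+/- mean and 5 with a Cd38-/- mean below it, and 9 genes of the family with a Cd38+/+ mean of at least 5 stayed outside. Zfp445, Zfp251 and Zkscan5 were picked out because they were higher in mutants, so their differences from Cd38+/+ are given as values without a test.

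RNA was sequenced from astrocytes of male mice aged 12 to 14 months. Wild-type Cd38+/+ and heterozygous Cd38+/- astrocytes gave 3 libraries each and knockout Cd38-/- astrocytes gave 6, compared to ask which astrocyte genes respond to loss of CD38, an ectoenzyme that converts NAD+ to nicotinamide. All mice were bred from C57BL/6J, and the mutant allele (B6.129P2 background, exons 2 to 3 of Cd38 disrupted) is global, so every cell of a mutant animal carried it and not astrocytes alone. Cells came from dissected striatum, thalamus and substantia nigra, labelled midbrain, and were selected with ACSA-2 beads after depletion of other cells. The sources used here do not say that each library was 1 animal, so p-values measure the spread between these libraries.

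C2H2 zinc finger proteins fold short loops around a zinc ion and read DNA, or in some members RNA, with an array of such fingers. Many carry a KRAB box, which recruits the corepressor TRIM28 and through it the histone methyltransferase SETDB1, and these proteins are best known for silencing retroelements and for keeping imprinted DNA methylation. Others carry a SCAN box, through which zinc finger proteins pair with each other. KRAB zinc finger genes arose by duplication and lie in clusters, and their transcripts are scarce in most tissues, the brain included.

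The family in these libraries had that form. A KRAB box without a SCAN box was found in 141 members, a SCAN box without a KRAB box in 20, both in 6 and neither in 119, in proteins read from the longest reading frame of each GENCODE vM21 gene. At least 1 C2H2 finger was found in 275 members, with a median of 10 fingers over all members and a maximum of 36. KRAB members had a median of 12 fingers and a median mean TPM of 10.5, members without a KRAB box a median mean TPM of 19.3. The members' median mean TPM, 13.2, was below the 32.5 of all 11373 genes that reach a mean of 5, their transcripts were longer (median 3501 against 3108.5 bases) and their GC content was lower (45.7% against 50.3%). On GRCm38 they lay on 20 chromosomes, with 66 on chromosome 7, 36 on 17, 24 on 13 and 20 on 8, and 137 sat in 23 runs of at least 3 members less than 300 kb apart. Another annotated gene overlapped 128 members, and near-identical copies share reads, so levels of overlapping or recently duplicated members are uncertain.

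Promoters were read to compare the members in sequence. The RefSeq promoter table (GRCm38.p6, from 250 bases before to 50 after each start) held 285 promoters of 235 members. Of these, 48.4% held a GC box (GGGCGG on either strand) against 35.7% of all 32851 promoters, 46.3% a CCAAT box (CCAAT, either strand) against 37.4%, 11.2% an ETS site (CCGGAAGT, either strand) against 3.89%, and 6.67% a TATA box (TATAAA, either strand) against 13.6%. The median number of CpG dinucleotides was 16 in member promoters and 7 in all promoters. Members were limited to a mean TPM of at least 5 and the 32851 promoters were not. Promoters of other genes of like TPM were not compared, so these contrasts cannot be assigned to the family. Printed 5′ to 3′ on the strand of the gene are Zfp445, singled out above, and the 3 members that, apart from the genes singled out, were called higher in Cd38-/- whichever library was left out. They lie at chr9:122865957-122866256 (minus strand), chr7:24270168-24270467 (plus), chr9:20460111-20460410 (minus) and chr17:21008691-21008990 (plus), in the order listed, and capitals mark GC boxes, CCAAT boxes and ETS sites.
Zfp445: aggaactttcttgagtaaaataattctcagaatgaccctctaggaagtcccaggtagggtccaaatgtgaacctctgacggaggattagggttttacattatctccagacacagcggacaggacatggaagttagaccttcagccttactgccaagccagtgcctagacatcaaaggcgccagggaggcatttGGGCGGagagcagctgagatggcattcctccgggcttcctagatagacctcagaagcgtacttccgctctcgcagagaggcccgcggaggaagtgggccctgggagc
Zfp93: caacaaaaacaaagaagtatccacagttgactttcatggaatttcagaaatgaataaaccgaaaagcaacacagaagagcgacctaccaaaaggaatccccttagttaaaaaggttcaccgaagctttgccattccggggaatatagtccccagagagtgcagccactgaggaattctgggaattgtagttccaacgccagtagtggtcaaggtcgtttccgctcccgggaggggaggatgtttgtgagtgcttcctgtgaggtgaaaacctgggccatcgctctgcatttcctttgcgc
Zfp26: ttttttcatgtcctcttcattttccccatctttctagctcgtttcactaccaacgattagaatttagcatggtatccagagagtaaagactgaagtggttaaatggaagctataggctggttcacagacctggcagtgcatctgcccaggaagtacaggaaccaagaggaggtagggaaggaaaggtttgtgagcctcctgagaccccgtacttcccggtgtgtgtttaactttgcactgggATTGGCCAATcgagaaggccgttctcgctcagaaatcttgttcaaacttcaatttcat
Zfp160: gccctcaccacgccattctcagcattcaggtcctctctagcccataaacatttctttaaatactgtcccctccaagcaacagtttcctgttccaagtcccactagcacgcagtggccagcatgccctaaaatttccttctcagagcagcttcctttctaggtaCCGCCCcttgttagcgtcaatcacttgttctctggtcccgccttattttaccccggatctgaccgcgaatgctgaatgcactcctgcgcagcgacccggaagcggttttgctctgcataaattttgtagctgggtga
The Zfp445 and Zfp160 windows held 1 GC box each and no CCAAT box, the Zfp26 window held 2 CCAAT boxes on opposite strands and no GC box, and the Zfp93 window held none of the 3 motifs. Over the 19 promoters of the 17 members called higher in Cd38-/- that the table held, 10 had a GC box, 10 a CCAAT box and 1 an ETS site.

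Cd38 itself followed the labels. Its TPM was 148.64, 120.04 and 104.88 in Cd38+/+, 90.8, 90.7 and 90.36 in Cd38+/-, and between 8.54 and 21.86 in Cd38-/-, with no overlap between the 3 genotypes. All 10 astrocyte markers were detected in every genotype, with summed TPM of 10323 to 14672 for Cd38+/+, 15480 to 17176 for Cd38+/- and 11919 to 15444 for Cd38-/-, so that Cd38+/- lay above every Cd38+/+ library. The sum of 6 microglia markers also separated the genotypes, at 6.23 to 17.9 for Cd38+/+ against 23.6 to 26.5 for Cd38+/- and 18.5 to 40.8 for Cd38-/-, without overlap between Cd38+/+ and either mutant. Sums of the other lists overlapped between Cd38+/+ and Cd38-/-: 8 neuron markers summed to 32.8 to 119.7 and 6 oligodendrocyte markers to 1295 to 17799 over all libraries. The 3 erythroid markers summed to 4306 to 18494 for Cd38+/+, 1726 to 3530 for Cd38+/- and 2106 to 8376 for Cd38-/-. The erythroid sum of every Cd38+/- library was thus below that of every Cd38+/+ library. In the order Cd38+/+, Cd38+/- and Cd38-/-, median sums were 918, 421 and 573 for 4 endothelial markers and 938, 1076 and 1802 for 4 ependymal and choroid markers. Markers listed at 0 in every Cd38+/+ library were Th, Mog, Cx3cr1, Tmem119 and Kl. The 3 Cd38+/+ libraries stood apart, with 13160 to 13516 genes above 0 TPM against 15920 to 17906 in the mutant libraries. In a bulk sample a lower share of a cell type and less RNA of a gene per cell cannot be told apart, and the part of these differences in the results that follow was not tested.

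The low end of the family separated Cd38+/+ from both mutants. In Cd38+/+ replicates 1, 2 and 3, 11, 30 and 13 of the 286 members were below 1 TPM, and 2, 15 and 4 were listed at 0, whereas no member was below 1 TPM in any of the 9 mutant libraries. This was shared with other genes of the same level: among genes with a mean TPM from 5 to 20, 5.58%, 14.7% and 6.60% of the 197 members and 6.59%, 11.7% and 6.80% of all 3824 genes were below 1 TPM in the 3 Cd38+/+ libraries. In the mutant libraries 0.0785% to 0.340% of those 3824 genes were below 1 TPM. Both sets were chosen by a mean weighted towards mutant levels, and that choice favours this contrast. Spread followed the same pattern. Members had a median SD of log2(TPM + 1) of 0.65 among Cd38+/+ libraries but 0.19 among Cd38+/- and 0.24 among Cd38-/- libraries, and for all genes with a mean TPM from 5 to 40 the medians were 0.66, 0.24 and 0.27. The summed TPM of all members was 5184 to 5498 in Cd38+/+, 5443 to 6597 in Cd38+/- and 5000 to 6614 in Cd38-/-, so that the Cd38-/- range contained the Cd38+/+ range.

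**Figure D1:**
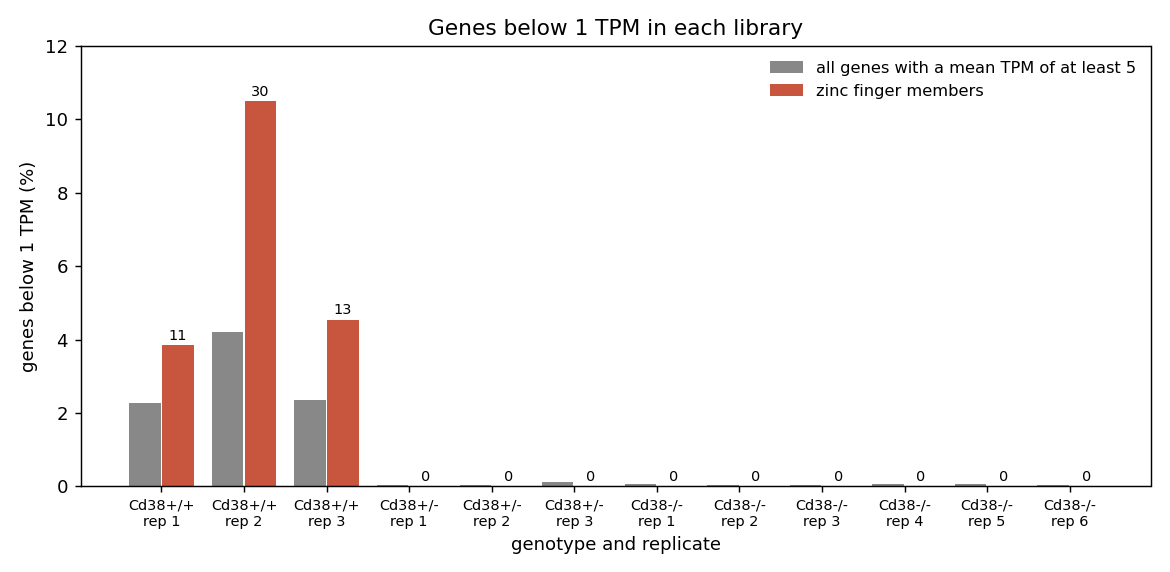
Share of genes below 1 TPM in each of the 12 libraries (y axis, percent), for zinc finger members (red, number of members printed above) and for all genes with a mean TPM of at least 5 (grey). The 3 Cd38+/+ libraries had 11, 30 and 13 members below 1 TPM and every mutant library had 0.

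The Cd38-/- libraries were first compared with Cd38+/+. Genes with a mean TPM above 5 in either genotype were fitted with limma on log2(TPM + 1), and a gene was called at a Storey q below 0.05 and a change of at least 1.2-fold. All 286 members were tested and 26 were called (9.09%), 22 higher and 4 lower in Cd38-/-, beside 970 of all 11722 genes tested (8.28%), 752 of them higher (6.42%) and 218 lower (1.86%). Without Zfp445, Zfp251 and Zkscan5, 23 of 283 members were called (8.13%), a share near the background. Of the 26, 13 encoded a KRAB box, as did 147 of the 286 members. In 9 of the 22 higher members the Cd38+/+ mean was below 5 TPM. When the family was instead taken as the 266 rows with a mean TPM of at least 5 in Cd38+/+, 17 were called (6.39%), beside 6.97% of the 11110 genes chosen in the same way. The count turned on single libraries, as did that of all genes. It was 60, 54 and 80 without Cd38+/+ replicates 1, 2 and 3 (21.2%, 18.9% and 28.1% of members, beside 15.5%, 16.5% and 26.5% of all genes). It was 6, 5, 17, 5 and 7 without Cd38-/- replicates 1, 2, 3, 5 and 6 (2.13%, 1.75%, 5.94%, 1.75% and 2.45% of members, beside 0.957%, 0.633%, 4.88%, 0.793% and 1.31% of all genes). Without Cd38-/- replicate 4 it was 19 (6.64% of members, beside 6.79% of all genes).

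The middle of the family lay above 0. The median log2 fold change of the members was 0.34, with 203 of 286 (71.0%) positive, against 0.15 and 64.3% over all genes tested. In the 266 family rows with a mean TPM of at least 5 in Cd38+/+ the median was 0.23, with 66.2% positive. The 11110 genes chosen in the same way had 0.13 and 62.3%. Genes of like expression were near the family. With a mean TPM from 5 to 10 the median log2 fold change was 0.44 in 94 members and 0.44 in all 1554 genes, from 10 to 20 it was 0.41 in 103 members and 0.30 in 2257 genes, from 20 to 40 it was 0.16 in 64 members and 0.20 in 2691 genes, and at 40 and above 0.12 in 25 members and 0.06 in 4858 genes. The shares called in these 4 bands were 7.45%, 8.74%, 10.9% and 12.0% of members and 7.34%, 8.02%, 8.77% and 8.01% of all genes. After quantile normalization, which gives every library the same distribution and moved the median of all genes from 0.15 to 0.01, the members' median was 0.01 as well and 25 members were called, 14 higher and 11 lower. With each library centred on its mean log2(TPM + 1), an alternative chosen after seeing the data, 31 were called, 16 higher and 15 lower, with medians of 0.11 in the members and -0.07 over all genes. Median-ratio scaling gave 19 higher and 7 lower (9.09% of members called), where 8.26% of all genes were called and 62.2% of those calls were higher. The split of calls thus depended on the scaling, while the share of members called was 9.09% as deposited, 8.74% after quantile normalization and 10.8% after centring, beside 8.28%, 9.51% and 11.6% of all genes.

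**Figure D2:**
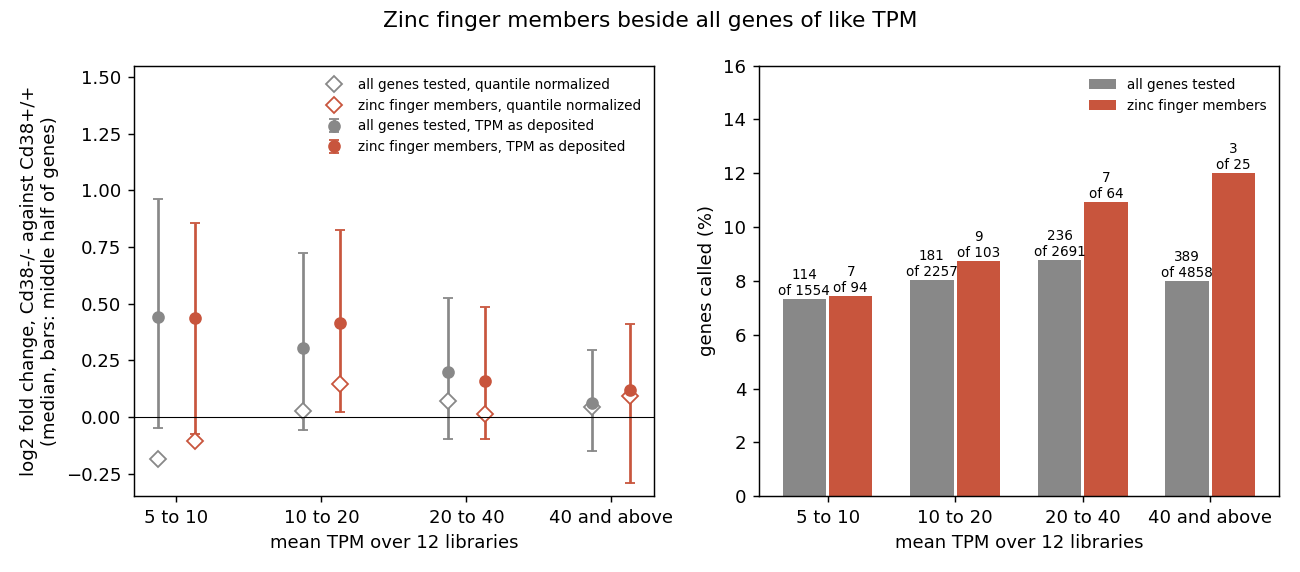
Left, median log2 fold change of Cd38-/- against Cd38+/+ (y axis) in 4 bands of mean TPM (x axis) for zinc finger members (red) and all genes tested (grey); filled points are TPM as deposited with bars from the lower to the upper quartile of the genes, open diamonds are medians after quantile normalization. Right, percent of genes called in the same bands, with counts above the bars: 7 of 94, 9 of 103, 7 of 64 and 3 of 25 members.

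Among the members called, Zfp93, Zfp26 and Zfp160, all with a KRAB box, were called whichever of the 9 libraries was left out. This does not count the 3 genes picked for being higher in mutants. Zfp93, Zfp26 and Zfp160 had Cd38+/+ means below 5 TPM and passed the filter only through their Cd38-/- means. Their calls and lack of overlap thus describe genes partly selected for being high in mutants. Zfp93 (chromosome 7, 24270420 to 24277794) was at 5.06, 0.06 and 0.25 TPM in Cd38+/+, at 11.44, 10.06 and 13.59 in Cd38+/-, and between 11 and 18.73 with a median of 11.9 in Cd38-/-. Every mutant library was above every Cd38+/+ library, and the log2 fold change on the log2(TPM + 1) scale was 2.79 ± 0.50 (SE, limma q = 0.0136). Zfp26, with 22 fingers on chromosome 9, was below 1 TPM in all 3 Cd38+/+ libraries (0.17, 0.79 and 0.78), at 10.57, 7.04 and 7 in Cd38+/-, and between 4.45 and 9.76 with a median of 7.5 in Cd38-/-. Both mutants lay above Cd38+/+ without overlap. The difference was 2.34 ± 0.40 on the log2 scale (q = 0.0114 by limma), and quantile normalization ended the call. Zfp160, on chromosome 17 with 18 fingers, was present in Cd38+/+ at 3.68, 4.74 and 4.85 TPM, and rose to between 11.75 and 18.95 with a median of 14.3 in Cd38-/-, beside 16.77, 13.63 and 13.86 in Cd38+/-. Its log2 fold change was 1.53 ± 0.27 (limma q = 0.0121).

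Zfp445, which with ZFP57 maintains methylation at imprinted loci and carries both a KRAB and a SCAN box, was at 13.63, 8.79 and 16.28 TPM in Cd38+/+, at 52.64, 45.57 and 46.79 in Cd38+/-, and between 31.88 and 51.04 with a median of 45.3 in Cd38-/-. The mutant libraries lay above all 3 Cd38+/+ libraries, by a log2 fold change of 1.70 ± 0.23 in Cd38-/- and 1.86 ± 0.31 in Cd38+/-. Zkscan5, also with both boxes, was at 0.69, 0 and 3.04 TPM in Cd38+/+, at 14.2, 12.64 and 14.56 in Cd38+/-, and between 12.86 and 17.55 with a median of 14.0 in Cd38-/-. Zfp251, a KRAB member on chromosome 15, was at 3.46, 6.09 and 6.44 TPM in Cd38+/+, at 24.09, 16.63 and 20.96 in Cd38+/-, and between 12.17 and 19.08 with a median of 16.2 in Cd38-/-. In all 3 genes both mutants were apart from Cd38+/+, and the 2 mutant genotypes overlapped.

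**Figure D3:**
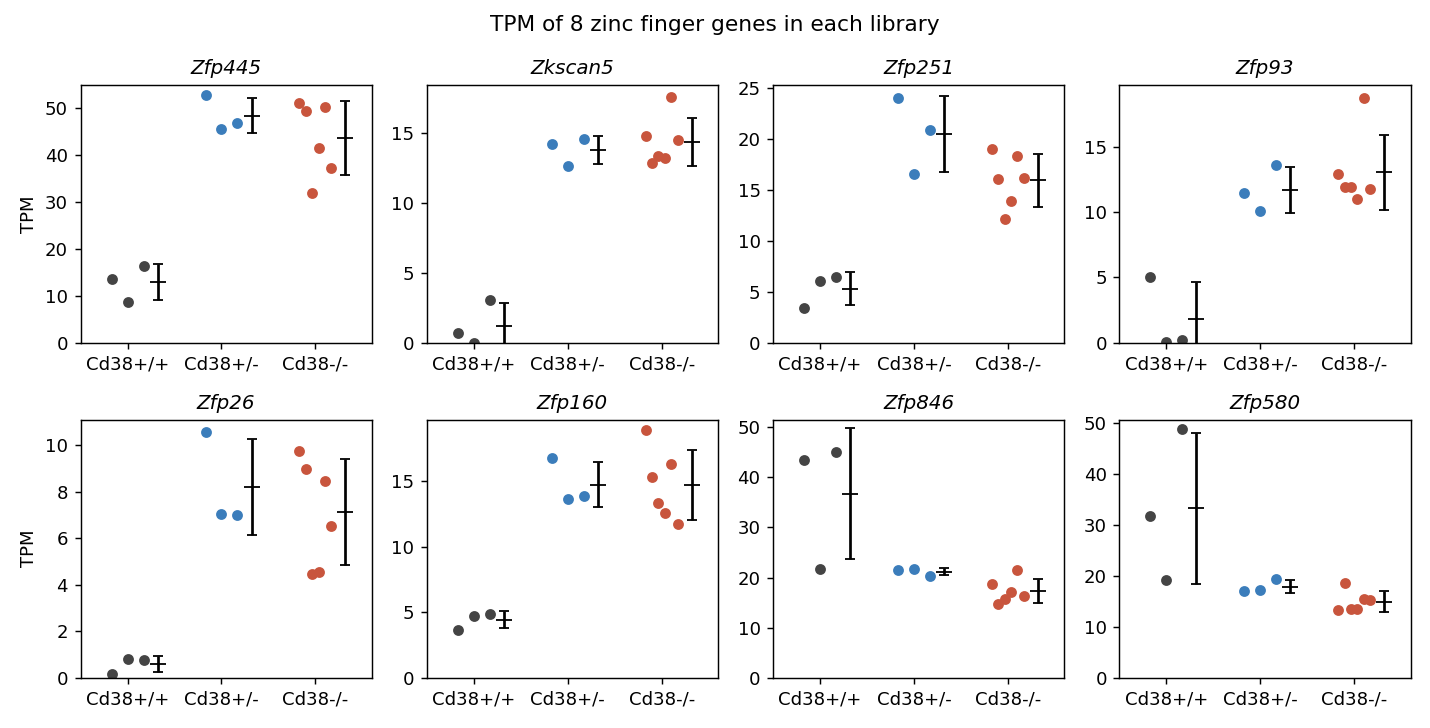
TPM (y axis, from 0) of 8 zinc finger genes in each library of the 3 genotypes (x axis); points are libraries, bars beside them the mean ± SD (n = 3, 3 and 6), and bars that would pass below 0 are cut there. Zfp445, Zkscan5, Zfp251, Zfp93, Zfp26 and Zfp160 were lower in all 3 Cd38+/+ libraries than in every mutant library, whereas Zfp846 and Zfp580 were higher in Cd38+/+ than in every Cd38-/- library.

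Other called members were higher from a lower start or by less. Zfp839, Zfp646, Zfp407 and Zfp667 were each listed at 0 in Cd38+/+ replicate 2, as was Zkscan5. Each of these genes also had a Cd38+/+ mean below 5 TPM and passed the filter only through its Cd38-/- mean. Zfp646, with 27 fingers, was at 2.14, 0 and 6.3 TPM in Cd38+/+ and between 8.31 and 16.03 in Cd38-/-, and its log2 fold change was 2.11 ± 0.52 (limma q = 0.0294). Zfp839, in which no C2H2 finger was found, was at 5.22, 0 and 1.73 TPM in Cd38+/+ and between 7.44 and 13.27 in Cd38-/-. Zfp407 was at 1.46, 0 and 0.74 TPM in Cd38+/+, at 11.77, 5.7 and 6.89 in Cd38+/-, and between 4.37 and 8.38 in Cd38-/-, and its call ended without Cd38-/- replicates 1, 2 or 5. Zfp451, a SUMO ligase, was at 5.2, 9.77 and 9.95 TPM in Cd38+/+ and between 12.06 and 21.07 in Cd38-/-, with a log2 fold change of 0.98 ± 0.29 (limma q = 0.0436). The smallest call was Zfp24, a factor needed for myelination by oligodendrocytes and among the most abundant members, at 85.41, 84.18 and 74.24 TPM in Cd38+/+ and between 93.29 and 130.66 with a median of 120.2 in Cd38-/- (log2 fold change 0.49 ± 0.15, limma q = 0.0445). The 22 higher members spanned log2 fold changes from 0.49 to 3.01, and the others were Zfp692, Zfp963, Zfp1, Zfp710, Zfp512b, Zfp62, Zkscan1, Zfp954, Zfp157 and Zfp871. Of all 26, 23 had no overlap between Cd38-/- and Cd38+/+, which selection by a small q in the same libraries favours. Over all members 33 were higher without overlap (11.5%) and 12 lower (4.20%), beside 8.21% and 3.62% of all genes tested.

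The 4 lower members were Zfp580, Zfp846, Zfp414 and Zfp428, with log2 fold changes from -1.02 to -0.65. Zfp846, the 1 with a KRAB box, was at 43.46, 21.8 and 45.07 TPM in Cd38+/+, at 21.55, 21.65 and 20.37 in Cd38+/-, and between 14.71 and 21.42 with a median of 16.6 in Cd38-/-. Cd38-/- lay below Cd38+/+ throughout, though Cd38+/+ replicate 2 was close to the heterozygous level (log2 fold change -0.99 ± 0.25, limma q = 0.0325). Zfp580, with 3 fingers, was at 31.64, 19.22 and 48.79 TPM in Cd38+/+, at 17.01, 17.21 and 19.38 in Cd38+/-, and between 13.25 and 18.66 with a median of 14.4 in Cd38-/- (log2 fold change -1.02 ± 0.28, limma q = 0.0362). Zfp414, with 2 fingers, was at 107.56, 62.85 and 87.38 TPM in Cd38+/+ and between 43.44 and 60.3 in Cd38-/-, and its log2 fold change was -0.73 ± 0.18 (limma q = 0.0309). Zfp428, with 1 finger, was at 73.13, 97 and 88.36 TPM in Cd38+/+ and between 45.59 and 74.34 in Cd38-/-, with overlap. All 4 kept their calls after quantile normalization, as did 14 of the 22 higher members, but all 4 lost them with Benjamini-Hochberg adjustment and in 4 to 6 of 9 leave-one-out fits. With the length and GC trend removed, Zfp580, Zfp414 and Zfp428 were no longer called, at -0.55, -0.43 and -0.20, and Zfp846 was. Zfp119b, a KRAB member at 10.99, 24.67 and 10.36 TPM in Cd38+/+ and between 5.94 and 8.71 in Cd38-/-, did not pass the test (log2 fold change -0.92 ± 0.33, limma q = 0.0702) and passed it after quantile normalization. Zfp703, a corepressor, and Zfp715 had values of -0.66 ± 0.33 and -0.65 ± 0.24, and Zfp235, at 35.87, 0.02 and 7.1 TPM in Cd38+/+, had 1.79 ± 0.79, none of them called.

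By known role the members were mixed. Of the imprint and retroelement list of 7 KRAB genes, 3 reached the threshold. Zfp445 is given above, Zfp809, which silences leukaemia proviruses in embryonic stem cells, was at 8.69, 31.88 and 8.53 TPM in Cd38+/+ and between 19.92 and 31.23 in Cd38-/- (log2 fold change 0.88 ± 0.36, limma q = 0.0944), and Zfp932, which represses endogenous retroviruses, had -0.45 ± 0.24 (limma q = 0.159). Of 8 members that work in chromatin complexes or bind GC-rich promoters, 0 were called by limma and 3 had an unadjusted p under 0.05, all 3 higher (17.6% of all genes tested were higher at that p). All 8 had positive log2 fold changes, with a median of 0.51 as deposited and 0.28 after quantile normalization. Zfp281, a GC-box factor, was at 13.68, 9.94 and 10.99 TPM in Cd38+/+ and between 15.23 and 26.95 in Cd38-/-, without overlap but short of a call (0.80 ± 0.25, limma q = 0.0521). Zfp148, which binds GC-rich promoters, had 0.67 ± 0.26 and Zfp644, a partner of the histone methyltransferases EHMT1 and EHMT2, 0.60 ± 0.24. Zfp592, Zfp687, Zfp532, Zfp335 and Zfp410, the last an activator of Chd4, lay between 0.10 and 0.55.

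Of 9 members with roles in RNA handling or mitosis, Zfp871 was called higher and the median log2 fold change was 0.21. Zfp871 was at 7, 35.23 and 12.8 TPM in Cd38+/+, overlapping the Cd38-/- range of 28.57 to 58.48, and it was called in 2 of 9 leave-one-out fits. Zfp207, which guides spindle assembly, was among the most abundant members at 155.86, 95.56 and 119.68 TPM in Cd38+/+, a median of 144.9 in Cd38-/- and a log2 fold change of 0.25 ± 0.15. Zfp326, a splicing and elongation factor, had 0.81 ± 0.33 and Zfp622, a factor in large ribosomal subunit maturation, -0.22 ± 0.21. The 3 CCCH members, which bring AU-rich messenger RNAs to decay and hold no C2H2 finger, gave no call: Zfp36 had -0.21 ± 0.26, Zfp36l1 -0.53 ± 0.32 and Zfp36l2 -0.06 ± 0.26. Among 4 members of glial and neural development, Zfp24 was the call, and Zfp521, Zfp423 and Zfp219 had 0.60 ± 0.34, 0.41 ± 0.26 and 0.12 ± 0.20. The most abundant member by mean TPM, Zfp706, was at 179.35, 206.16 and 169.24 TPM in Cd38+/+ and between 120.82 and 165.51 in Cd38-/-, all below (log2 fold change -0.39 ± 0.13, limma q = 0.0616). Zfp637 and Zfp467, also among the 6 most abundant, had -0.36 ± 0.13 (limma q = 0.0683) and -0.11 ± 0.17.

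The silencing machinery that KRAB proteins recruit was read from a list of 28 genes, 27 of them tested. Dnmt1, the maintenance DNA methyltransferase, was the 1 of these 27 called, where 8.28% of all genes tested were called. It was at 3.09, 5.14 and 0.57 TPM in Cd38+/+, at 18.09, 10.19 and 12.12 in Cd38+/-, and between 7.1 and 16.51 in Cd38-/-, without overlap (log2 fold change 1.92 ± 0.44, limma q = 0.0233). The Cd38+/+ mean of Dnmt1 was 2.93 TPM, so it passed the filter only through its Cd38-/- mean. Trim28, the direct KRAB partner, was at 71.07, 113.52 and 90.89 TPM in Cd38+/+ and had -0.27 ± 0.18, and Setdb1, at 4.64, 16.67 and 22.02 TPM, had 0.77 ± 0.40. The list's median was 0.22, with 3 members higher and 2 lower at an unadjusted p under 0.05, where 17.6% of all genes were higher and 5.99% lower.

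Members were then grouped by protein form and position. The median log2 fold change was 0.33 in members with a KRAB box alone, 0.40 with a SCAN box alone, 0.69 in the 6 with both and 0.33 with neither, and after quantile normalization -0.11, 0.19, 0.34 and 0.09. The class with both boxes held Zfp445 and Zkscan5, which were picked for being higher in mutants, and the median of its other 4 members was 0.50, or 0.15 after quantile normalization, with 0 called by limma and 0 at an unadjusted p under 0.05. Across the 286 members Spearman's rho with the log2 fold change was 0.15 for finger number, 0.16 for transcript length, -0.12 for GC content and -0.20 for mean TPM, beside 0.22, -0.18 and -0.22 for the last 3 over all genes tested; genes share libraries and are not independent. Chromosome 5, which also holds Cd38, was highest of the 8 chromosomes with most members, with a median of 0.80 in 18 members against 0.16 in all 772 genes tested there. Without Zkscan5, picked for its difference, 15 of 17 were positive (88.2%) and 2 were called (Zkscan1 and Zfp157, 11.8%), beside 62.7% and 8.94% of all genes there, and the median was 0.80 as deposited and 0.51 after quantile normalization. On chromosome 11, 16 of 18 members were positive (88.9%) and 2 were called (11.1%), beside 62.8% and 9.38% of all genes there. The members' median on chromosome 11 was 0.38 as deposited and 0.07 after quantile normalization. Chromosome 5 was chosen after its values were seen. Zkscan1 and Zfp157 began at 138 Mb, and Cd38 begins at 43.9 Mb. The members nearest to Cd38 were Zfp513 at 31.2 Mb and Zfp512 at 31.5 Mb. Their log2 fold changes were 1.52 and 0.50, or 0.90 and 0.42 after quantile normalization, and neither was called. A link between position and these values was not tested. Zkscan14 and Zfp655, on either side of Zkscan5, had log2 fold changes of 0.68 and 0.92 against its 3.01. The longest run of neighbours, 13 members at chr7:29768552-30169750 from Zfp84 to Zfp146, had a median of 0.98 with 11 of 13 positive and 0 called, and 0.28 after quantile normalization. Of these 13, 38.5% had an unadjusted p under 0.05, beside 23.6% of all genes tested.

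The heterozygous libraries were compared with the same 3 Cd38+/+ libraries and gave no calls. Against Cd38+/+, 0 of 286 members and 0 of 11763 genes were called by limma (0%), and 30 members had an unadjusted p under 0.05, 27 higher and 3 lower, where 13.5% of all genes did, 9.5% higher and 3.99% lower. The median log2 fold change was 0.37 in the members and 0.18 over all genes, 0.10 and 0.03 after quantile normalization. Positive values were found in 215 members (75.2%) and in 64.4% of all genes. Without overlap, 55 members were higher (19.2%) and 17 lower (5.94%), beside 15.5% and 6.94% of all genes. By band of mean TPM the median was 0.58, 0.50, 0.27 and 0.26 in members and 0.47, 0.36, 0.24 and 0.06 in all genes. After quantile normalization it was -0.04, 0.17, 0.12 and 0.22, beside -0.15, 0.07, 0.08 and 0.05. The member median was thus above that of genes of like level in each band, a difference not tested. Shares with an unadjusted limma p under 0.05 were 7.45%, 8.74%, 14.1% and 20% of members, beside 8.54%, 9.79%, 11.9% and 17.8% of all genes. All 26 members called in Cd38-/- had the same sign in Cd38+/-, where both comparisons share their controls. The most positive were Zkscan5 (2.96 ± 0.66), Zfp93 (2.66 ± 0.77), Zfp26 (2.55 ± 0.65) and Zfp407 (2.43 ± 0.70), and the last 3 had limma q of 0.177, 0.176 and 0.177. The most negative were Zfp969 (-1.15 ± 0.62), Zfp119b (6.1, 7.17 and 6.53 TPM in Cd38+/-), Zfp580 (-0.77 ± 0.37) and Zfp968-ps (-0.72 ± 0.58), of which the last is named as a pseudogene. Fitting all 12 libraries together, so that the mutants lent their smaller spread to Cd38+/+, gave 38 called members in Cd38+/- and 51 in Cd38-/-, beside 12.4% and 15.5% of all genes.

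Between the mutants little was seen. Of 286 members 0 were called by limma in Cd38-/- against Cd38+/-, beside 4 of 11563 genes (0.0346%, with 0.0173% higher and 0.0173% lower). An unadjusted p under 0.05 was found for 8 members (2.80%), 3 higher and 5 lower, beside 11.2% of all genes, 6.24% higher and 5% lower. Without overlap, 0 members were higher and 3 lower (Zfp326, Zfp408 and Zfp983), beside 2.85% and 2.88% of all genes. The median log2 fold change was -0.06 in the members and -0.02 over all genes, with 96 members (33.6%) and 45.4% of all genes above 0. The most positive members were Zfp969 (0.90 ± 0.37), at 2.41, 4.62 and 9.92 TPM in Cd38+/- and between 4.8 and 15.8 in Cd38-/-, Zfp474 (0.56 ± 0.27) and Zfp239 (0.50 ± 0.22). The most negative were Zfp408 (-0.64 ± 0.19), Zfp385a (-0.53 ± 0.20) and Zfp36l2 (-0.51 ± 0.24). Zfp408 was at 13.86, 10.2 and 14.34 TPM in Cd38+/- and between 5.7 and 9.1 in Cd38-/-, without overlap, but was also at 10.72, 18.93 and 4.26 in Cd38+/+, and had a limma q of 0.196. For the members called against Cd38+/+, 0 of 26 had an unadjusted p under 0.05 between the mutants. Zfp445, Zfp251 and Zkscan5 had log2 fold changes of -0.17 ± 0.15, -0.34 ± 0.17 and 0.05 ± 0.14, with limma q of 0.524, 0.349 and 0.668.

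The threshold was close for several genes. Just inside it were Zfp72, Zfp169 and Zfp975, with mean TPM of 5.07, 5.09 and 5.10, and just outside Zfp937, Zfp827 and a second gene entry named Zfp91, with 4.97, 4.93 and 4.84. Zfp551, with a mean of 4.46, was outside: all 3 Cd38+/+ libraries listed it at 0, and it lay between 4.69 and 7.55 TPM in the 9 mutant libraries. The BTB zinc finger genes named Zbtb, taken by the same mean TPM, gave 1 call in 27 (3.70%) in Cd38-/- against Cd38+/+, with a median log2 fold change of 0.11, and -0.25 after quantile normalization.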

How the data were processed

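Per the labels and the study's methods, the authors trimmed reads with Trim Galore 0.6.4, mapped them to mm10 with STAR 2.7.1a and estimated expression with RSEM 1.2.28; the submitters' processing notes also list DESeq2 1.36.0 with no role; libraries were SMART-Seq v4, and the annotation is not given in the sources used here. The deposited unit is TPM, as processed by the authors. TPM keeps no depth, so the depth of each library is unknown and no counting interval is given. Genotypes came from the labels. For each pair of genotypes, genes with a mean TPM above 5 in either were fitted on log2(TPM + 1) with limma 3.58.1 (lmFit, eBayes with a trend, R 4.3.3), with Storey q over all of them. The fit was also run on simulated data that gave both genotypes the same spread for each gene. In the libraries the members' median SD was 0.65 in Cd38+/+ and 0.24 in Cd38-/-. The simulation therefore cannot show how the calls hold under unequal spread. The study states the filter, q and fold thresholds but not the test. Lengths, GC, positions and proteins came from GENCODE vM21 (all 286 members matched). C2H2 fingers were 2 Cys 2 to 4 residues apart, 12 residues and 2 His 3 to 5 apart; KRAB and SCAN boxes were found by position weights.

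Members and gene lists were chosen with earlier results of these data known. Named were Cd38; the 3 genes higher in mutants; Zfp407 and Zfp551; the 6 most abundant members; the most positive and negative members of each comparison (8 and 6, 4 and 4, 3 and 3); the 10 called members of smallest q; threshold neighbours; role lists (Zfp36l3, Zfp57, Zfp568, Zfp708, Zfp819, Zfp462, Zfp217, Zfp385b, Zfp488 and Zfp536 did not reach the threshold); and called silencing partners. Other called members, Zfp983, Trim28, Setdb1, Zfp512, Zfp513, Zkscan14 and Zfp655 were chosen after their values were seen. Alternatives were other pseudocounts, filters, adjustments, weights, scalings, a length and GC correction, a replicate block, 1 joint fit, other member rules and leaving out each library. Figures were drawn with matplotlib 3.10.9.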

Additional observations from a re-analysis of the deposited data

Results flagged for a closer look

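Each named member and 3 family summaries were examined for a library standing apart among the 6 Cd38-/- libraries, 65 measures in all, by the gap to the nearest library over the whole range (critical value 0.625). Chance flags about 1 in 20 such groups. In Zfp36 the highest library, Cd38-/- replicate 1, had a ratio of 0.801. In Zfp346 the lowest library, Cd38-/- replicate 3, had 0.682. In Zfp93 and Zfp1 the highest library, Cd38-/- replicate 5 in both, had 0.704 and 0.663. Zfp36 and Zfp346 were called in no comparison. Zfp93 was called without Cd38-/- replicate 5, and Zfp1 was not. Zfp1 also lost its call without Cd38-/- replicates 1, 2 or 6. Without replicate 5, 0.793% of all genes were called, beside 8.28% with all libraries.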

How the results depend on the processing

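In Cd38-/- against Cd38+/+ the 26 calls became 10 with Benjamini-Hochberg adjustment (3.50%, beside 2.78% of all genes), 0 with library quality weights (beside 1 of 11722 genes), 51 with all 12 libraries in 1 fit (17.8%, beside 15.5%), 17 in the family taken by its Cd38+/+ mean, and 5 to 80 when 1 library was left out. The members' median log2 fold change, 0.34, became 0.17 over members with at least 1 TPM in every library (a filter that removes only members low in Cd38+/+ and so lowers the median by construction), 0.013 after quantile normalization and 0.11 after centring, and 0.28 to 0.39 with 1 library left out. In Cd38+/- against Cd38+/+ the 0 calls became 5 without a filter, 2 with quality weights and 38 in the joint fit (1.75%, 0.699% and 13.3%, beside 3.85%, 0.255% and 12.4% of all genes), and the median of 0.37 became 0.10 after quantile normalization and 0.14 after centring. In Cd38-/- against Cd38+/- the 0 calls became 46 with quality weights, 11 higher and 35 lower (16.1%, beside 27.0% of all genes). Leaving out 1 library gave 0 calls in both of these comparisons. The cause of these changes was not tested. Deviations of same-numbered libraries from their genotype means had correlations from -0.32 to 0.50, the highest for replicate 1 of Cd38+/- and Cd38-/-. With 3 libraries in a genotype, these values cannot settle whether the numbers pair libraries. With a replicate block the 26 calls became 0, beside 2 of 11722 genes. With the block and a length and GC correction they became 0, beside 2 of 11709 genes. In Cd38-/- against Cd38+/- the block with that correction gave 1 (0.350%, beside 1.08% of all genes). No alternative turned the sign of a called value. Depth is unknown, and the 3 Cd38+/+ libraries limit each comparison with them.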
